A study of Homo sapiens with 8 samples.

Results

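The levels of 10 genes of cell division were followed on arrays of BEX2-knockdown and control HuCCT1 cells. They were the 4 mitotic kinases CDK1, PLK1, AURKA and AURKB, the phosphatase CDC25C, the chromosomal passenger protein BIRC5, the ubiquitination factors CDC20 and UBE2C, the topoisomerase TOP2A and the proliferation marker MKI67. Members were found by gene name among the spots that are not controls, CDK1 under its older array name CDC2. They are 10 of 34809 gene names on the array and 10 of the 20450 genes tested, and all 10 probes were well above background on all 8 arrays. HuCCT1 is an established human intrahepatic cholangiocarcinoma line. Cells carried the control vectors shControl or shNontarget, or the BEX2 hairpin vectors shBEX2-1 or shBEX2-2, with 2 arrays for each vector and no treatment or time course named. The labels call the cells transfected, and the methods describe the BEX2 hairpins as retroviral. The study describes a control hairpin against luciferase without tying it to either control vector, so both served as control. The target sequences that the methods list for the hairpins are, shifted by a single base, the reverse complement of each other. If printed correctly, they name the same target site, and this could not be checked here.

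Mitosis is driven by CDK1 bound to B-type cyclins, which CDC25C activates by removing inhibitory phosphates. PLK1 and AURKA act on centrosomes and the spindle, AURKB and BIRC5 (survivin) correct chromosome attachment, and CDC20 and UBE2C let the anaphase-promoting complex (APC/C) mark cyclins and securin for destruction. TOP2A untangles sister chromatids, and MKI67 encodes the antigen Ki-67, which coats mitotic chromosomes and is scored in tumours as a sign of dividing cells. The genes are transcribed mostly from late S phase to mitosis, and many are known to be held down in resting cells through a promoter element called the cell cycle genes homology region (TTTGAA), often with CCAAT boxes nearby.

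That element was looked for on both strands in RefSeq promoter windows of GRCh38.p14, from 250 bases before to 50 bases after each start. Windows were listed for 7 members, 12 in all, and AURKA, BIRC5 and UBE2C were not matched. Some windows of CDK1, AURKB and CDC25C overlap, so the same bases can count more than once. The shares given for all windows count windows and not genes. TTTGAA was present in 8 of the 12 windows and in 6 of the 7 genes, AURKB being the exception, and in 15.2% of all 35116 windows. CCAAT was present in 10 of the 12 windows and all 7 genes, and in 34.6% of all windows. Both motifs lay in 8 of the 12 windows and in 5.90% of all windows. The 200 bases before the start are printed for the 4 members with a single listed window and both motifs, so that the shared letters can be seen. Capitals mark TTTGAA and CCAAT or their reverse complements TTCAAA and ATTGG. In MKI67 the TTTGAA at position -29 from the start runs into the ATTGG at position -24, and the last base of the former is the first of the latter. A match describes the letters and is not a measured binding site.
MKI67, chr10:128126424-128126623, minus strand: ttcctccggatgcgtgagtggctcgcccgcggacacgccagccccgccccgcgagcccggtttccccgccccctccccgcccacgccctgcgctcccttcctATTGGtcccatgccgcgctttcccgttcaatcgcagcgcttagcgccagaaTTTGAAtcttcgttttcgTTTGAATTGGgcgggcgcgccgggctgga
PLK1, chr16:23678689-23678888, plus strand: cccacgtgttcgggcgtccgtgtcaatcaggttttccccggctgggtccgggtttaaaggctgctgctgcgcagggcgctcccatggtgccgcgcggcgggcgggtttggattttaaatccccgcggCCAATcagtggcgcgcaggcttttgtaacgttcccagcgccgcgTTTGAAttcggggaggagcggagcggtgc
CDC20, chr1:43358781-43358980, plus strand: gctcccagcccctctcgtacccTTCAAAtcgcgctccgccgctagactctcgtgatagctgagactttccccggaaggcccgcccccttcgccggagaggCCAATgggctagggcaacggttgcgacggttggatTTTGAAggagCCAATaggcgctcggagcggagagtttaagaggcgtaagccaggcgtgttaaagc
TOP2A, chr17:40417897-40418096, minus strand: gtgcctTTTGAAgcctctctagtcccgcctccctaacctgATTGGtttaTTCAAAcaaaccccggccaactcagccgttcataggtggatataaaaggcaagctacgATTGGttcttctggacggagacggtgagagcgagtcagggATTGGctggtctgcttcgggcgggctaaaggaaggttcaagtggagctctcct

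Levels below are log2 of the processed intensity minus the 75th percentile of its array, so that 0 is that percentile and a step of 1 is a doubling. Spots well above background made up between 59.8% and 64.6% of an array, and the 75th percentile itself was 666 to 838 on control arrays and 441 to 631 on BEX2-knockdown arrays. The number of arrays limits the precision. Whether replicate arrays hold RNA of separate cultures is not given in the sources used here, so the p-values measure the spread between arrays, which may be technical. All 8 arrays were on 1 slide read in 1 scan, with control arrays in row 1 and BEX2-knockdown arrays in row 2, so that position and group cannot be told apart. The shNontarget arrays stood apart, with 34.9% of genes differing between them by more than 1 log2 unit against 0.557% to 1.76% in the other vectors. BEX2 intensity, not scaled between arrays, was 48.8 to 115 on the control arrays and 20.4 and 26.0 on the shBEX2-2 arrays. On the shBEX2-1 arrays it was 11.9 and 11.1, not well above background. Scaled like the levels below, BEX2 was at -3.91 to -2.70 on the control arrays. It was then at -4.92 and -4.60 in shBEX2-2 and at -5.21 and -5.54 in shBEX2-1. The bile duct markers KRT7, KRT19, KRT8, KRT18, EPCAM and SOX9 were detected on all 8 arrays. Markers of other cell types were mixed. The hepatocyte markers ALB, APOC3 and TTR were detected on 0 arrays and APOA1 on 6. The leukocyte markers CD14, PTPRC and CD3E were detected on 8, 7 and 3 arrays. Of the endothelial and fibroblast markers, PECAM1 and COL3A1 were detected on 0 arrays, and VWF, COL1A1 and LUM on 8.

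BEX2-knockdown cells held more RNA of most of the mitotic kinases and proliferation markers than control cells. All 10 were higher on average over the 4 BEX2-knockdown arrays, by 1.76-fold (TOP2A) to 3.83-fold (MKI67). Of the 10, 8 rose in limma's test at an adjusted p under 0.05, against 6.68% of all genes called higher, 6.27% called lower and 13% called in either direction. The same 8 had every BEX2-knockdown array above every control array, as had 11.4% of all genes. AURKB and TOP2A were the other two. The median log2 fold change of the members was 1.45 beside 0.027 over all genes. In bulk RNA, more dividing cells and more of these RNAs per cell cannot be told apart.

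**Figure D1:**
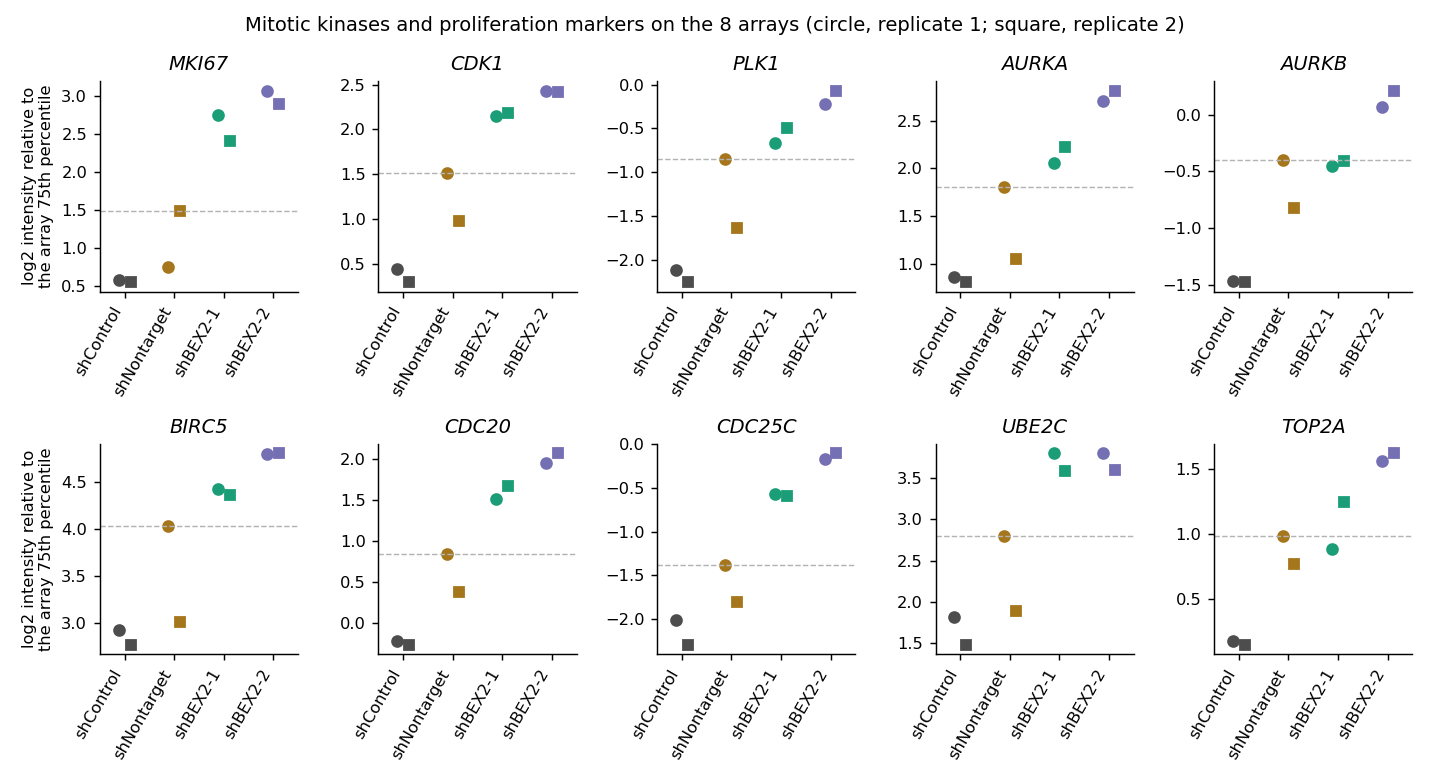
Level of each gene on each array (vertical axis, log2 intensity relative to the array's 75th percentile; circles, replicate 1; squares, replicate 2; dashed line, highest control array). For 8 genes all 4 BEX2-knockdown arrays lie above the dashed line, whereas both shBEX2-1 arrays of AURKB and shBEX2-1 replicate 1 of TOP2A lie below it.

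CDK1, the kinase that starts mitosis, stood at 0.44 and 0.29 on the shControl arrays, 1.52 and 0.98 on the shNontarget arrays, 2.15 and 2.19 in shBEX2-1 cells and 2.43 and 2.41 in shBEX2-2 cells. The BEX2-knockdown arrays were close to each other, and the control arrays spread over more than 1 log2 unit without reaching them. CDK1 rose by 1.49 log2 units (SE 0.25, n = 4 and 4, limma adjusted p = 0.00677), a 2.80-fold difference (95% interval 1.89 to 4.17). The array holds 10 repeat spots of this probe, whose SD was at most 0.078 log2 units on any array. CDC25C, its activating phosphatase, was at -2.003 and -2.29 in shControl, -1.38 and -1.80 in shNontarget, -0.57 and -0.59 in shBEX2-1 and -0.17 and -0.11 in shBEX2-2. The groups were separated by 0.79 log2 units between the lowest BEX2-knockdown and the highest control array. CDC25C rose 2.84-fold (2.03 to 3.97, limma adjusted p = 0.00321).

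PLK1, a kinase of centrosomes, kinetochores and cytokinesis, was at -2.12 and -2.25 in shControl, -0.85 and -1.63 in shNontarget, -0.67 and -0.50 in shBEX2-1 and -0.22 and -0.07 in shBEX2-2. No arrays of the groups overlapped, but shNontarget replicate 1 came within 0.18 of the lowest BEX2-knockdown array. PLK1 rose 2.55-fold (1.60 to 4.06, limma adjusted p = 0.0189). This call was lost on leaving out either shControl or either shBEX2-2 array, with adjusted p between 0.0565 and 0.0651. The array design places the brighter PLK1 probe on another chromosome than PLK1. The dimmer probe, placed by the design on chr16:23692251-23692310 of hg19, was higher by 1.09 log2 units with an adjusted p of 0.110 in limma's fit of all probes, so that this check did not pass.

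AURKA, the Aurora kinase of the spindle poles, was at 0.86 and 0.81 in shControl, 1.80 and 1.05 in shNontarget, 2.05 and 2.22 in shBEX2-1 and 2.71 and 2.82 in shBEX2-2. It rose 2.49-fold (1.67 to 3.73, limma adjusted p = 0.0116), without overlap of the groups. AURKB, the Aurora kinase of the chromosomal passenger complex, was at -1.47 and -1.48 in shControl, -0.40 and -0.83 in shNontarget, -0.45 and -0.41 in shBEX2-1 and 0.07 and 0.21 in shBEX2-2. Here shNontarget replicate 1 lay level with the shBEX2-1 arrays, and the log2 difference of 0.90 (SE 0.27) did not pass the test (limma adjusted p = 0.0612). The 95% interval of that difference was 0.29 to 1.51. Without shNontarget replicate 1 it was 1.11 and passed (limma adjusted p = 0.00958).

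BIRC5, the partner of AURKB in the passenger complex and an inhibitor of apoptosis protein, was at 2.93 and 2.77 in shControl, 4.04 and 3.01 in shNontarget, 4.42 and 4.37 in shBEX2-1 and 4.80 and 4.81 in shBEX2-2. The shNontarget arrays were 1.03 log2 units apart, with the higher still below every BEX2-knockdown array. BIRC5 rose 2.67-fold (1.74 to 4.09, limma adjusted p = 0.0111).

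CDC20, the coactivator that opens APC/C activity at anaphase, was at -0.22 and -0.27 in shControl, 0.84 and 0.37 in shNontarget, 1.51 and 1.67 in shBEX2-1 and 1.95 and 2.06 in shBEX2-2. It rose 3.07-fold (2.06 to 4.58, limma adjusted p = 0.00495), with a gap of 0.67 log2 units between the groups. UBE2C, the ubiquitin-conjugating enzyme that primes APC/C substrates, was at 1.82 and 1.48 in shControl, 2.80 and 1.89 in shNontarget, 3.80 and 3.59 in shBEX2-1 and 3.80 and 3.60 in shBEX2-2. The sublines held the same range, and UBE2C rose 3.25-fold (2.19 to 4.83, limma adjusted p = 0.00387).

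MKI67 had the highest fold among the 10, with 0.58 and 0.56 in shControl, 0.75 and 1.49 in shNontarget, 2.75 and 2.41 in shBEX2-1 and 3.07 and 2.90 in shBEX2-2. The lowest BEX2-knockdown array was 0.92 log2 units above the highest control array. MKI67 rose 3.83-fold (2.66 to 5.51, limma adjusted p = 0.00170). Its 2 dimmer probes rose as well, by 1.33 and 1.64 log2 units (limma's fit of all probes, adjusted p = 0.0130 and 0.00664). TOP2A was at 0.17 and 0.14 in shControl, 0.99 and 0.77 in shNontarget, 0.89 and 1.25 in shBEX2-1 and 1.57 and 1.63 in shBEX2-2. Its shBEX2-1 replicate 1 was below shNontarget replicate 1, and the log2 difference of 0.81 (SE 0.24, 95% interval 0.27 to 1.36) did not pass (limma adjusted p = 0.0571). TOP2A passed without shNontarget replicate 1 (0.97, limma adjusted p = 0.0156) and without shNontarget replicate 2 (0.90, limma adjusted p = 0.0417). By rank product over the 16 pairs of a BEX2-knockdown and a control array, given as a rank only, the rises of the members stood between 95 (MKI67) and 1334 (TOP2A) of 20450.

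By subline, more members passed in shBEX2-2 than in shBEX2-1 cells, and the comparisons share all 4 control arrays. In shBEX2-1 cells 7 of 10 rose against the mean of both control vectors (3.39% of all genes were called higher), and in shBEX2-2 cells all 10 rose (4.86%). The median log2 fold change of the members was 1.25 in shBEX2-1 and 1.63 in shBEX2-2. AURKB was 0.62 and 1.18 higher in shBEX2-1 and shBEX2-2, with limma adjusted p of 0.0696 and 0.00894. TOP2A was 0.55 and 1.08 higher, with limma adjusted p of 0.0844 and 0.0102. BIRC5 was 1.21 and 1.62 higher, with limma adjusted p of 0.0573 and 0.0199. The other seven, called in each subline, ranged from 1.01 (AURKA) to 1.73 (MKI67) in shBEX2-1 and from 1.57 (PLK1) to 2.14 (MKI67) in shBEX2-2. Both shBEX2-1 arrays were above all 4 control arrays for 8 members (16.9% of all genes), and both shBEX2-2 arrays for all 10 (17.6%).

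With the replicate number as a block, the shBEX2-1 calls of PLK1 and AURKA were lost (limma adjusted p = 0.0642 and 0.0728) and 5 members remained called. Over all 20450 genes, those called higher in shBEX2-1 fell from 693 to 513 with the block. The shBEX2-1 calls of members were lost without any 1 array outside the shNontarget pair, and calls over all genes fell too. Without either shNontarget array, calls rose both for members and over all genes. These fits leave 1 array in a vector, and the shBEX2-1 differences ran from 0.37 (TOP2A) to 1.92 (UBE2C). The shBEX2-2 calls fell without either shControl or either shBEX2-1 array, and were lost without either shBEX2-2 array. Calls over all genes fell or were lost in the same fits. The shBEX2-2 differences ran from 1.02 (TOP2A) to 2.32 (MKI67) on leaving out single arrays.

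**Figure D2:**
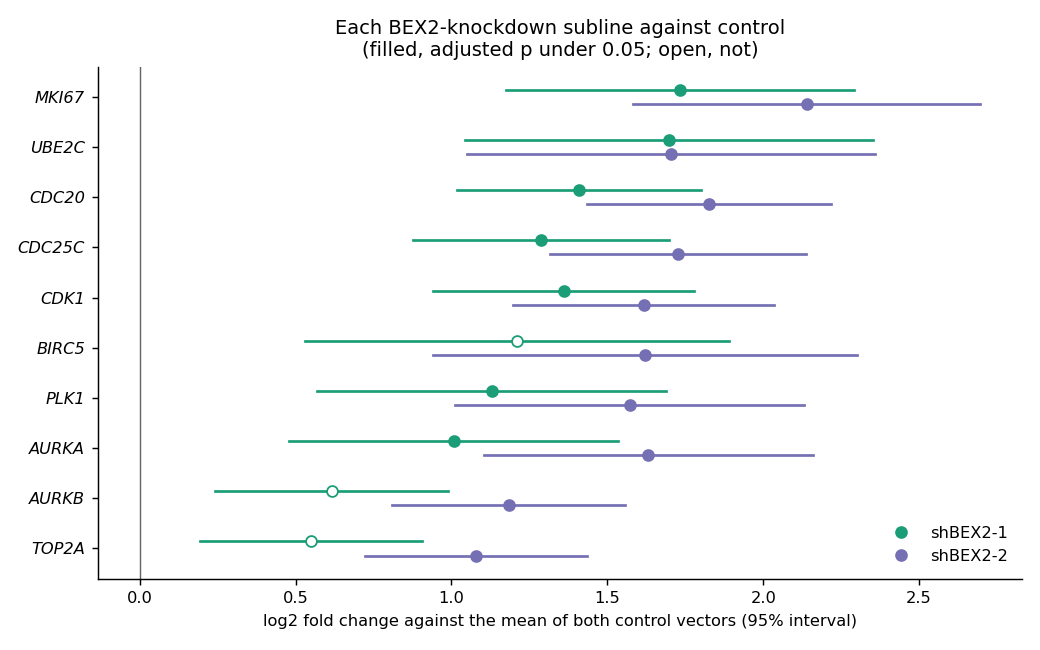
Log2 fold change of each gene in shBEX2-1 and shBEX2-2 cells against the mean of both control vectors (points, estimates; bars, 95% intervals; filled points, adjusted p under 0.05). All points lie to the right of 0, and the shBEX2-1 points of AURKB, BIRC5 and TOP2A are open.

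Set directly against each other, the sublines did not differ at the threshold for any member. All 10 were higher in shBEX2-2 than in shBEX2-1, with a median difference of 0.43 log2 units beside -0.039 over all genes, but 0 passed in limma's test (lowest adjusted p = 0.471; 0.00978% of all genes were called). At an unadjusted p under 0.05 the count was 3, AURKA (0.62, 95% interval 0.02 to 1.23), AURKB (0.57, 0.14 to 1.00) and TOP2A (0.53, 0.12 to 0.94), and 3.95% of all genes were higher at that level. For UBE2C the difference was 0.0058, with an interval of -0.75 to 0.76. A fit of the 4 subline arrays alone called 7 members higher in shBEX2-2, all but MKI67, CDK1 and UBE2C. The 7 had limma adjusted p between 0.00725 and 0.0357, in a fit that called 2703 of 20450 genes, 1364 of them higher. In the model of all vectors, leaving out either shNontarget array kept these differences unchanged, while more genes and members were called.

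The control vectors were also unlike each other for these genes. All 10 members were higher in shNontarget than in shControl, with a median difference of 0.71 log2 units beside -0.0096 over all genes. None passed in limma's test (lowest adjusted p = 0.371, 0% of all genes called), whereas 6 had an unadjusted p under 0.05, against 4.37% of all genes higher at that level. AURKB (0.86, 95% interval 0.43 to 1.29), CDK1 (0.88, 0.40 to 1.36) and CDC20 (0.85, 0.40 to 1.30) had the smallest p-values. For 9 of the 10, shNontarget replicate 1 was the highest control array, as it was for 35.7% of all genes. MKI67 was the exception, at 0.75 on shNontarget replicate 1 and 1.49 on replicate 2, and its dimmer probes had the same order. Leaving out either shNontarget array leaves 1 array of that vector, and calls then rose over all genes as well as for members. Without shNontarget replicate 1 the differences from shControl ran from 0.16 (BIRC5) to 0.92 (MKI67). Without replicate 2 they ran from 0.18 (MKI67) to 1.33 (PLK1).

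The choice of control arrays set how many members passed, and no choice turned a direction. Against shControl alone all 10 rose, by 1.17 (TOP2A) to 2.21 (MKI67) log2 units, where 3522 of 20450 genes were called higher. Against shNontarget alone, where 194 of 20450 genes were called higher, MKI67 was the 1 member that passed, at 1.66 (limma adjusted p = 0.0429). AURKB and TOP2A were 0.47 and 0.45 higher there. Without shNontarget replicate 1 all 10 passed, by 0.97 (TOP2A) to 1.97 (UBE2C), where 12% of all genes were called higher.

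**Figure D3:**
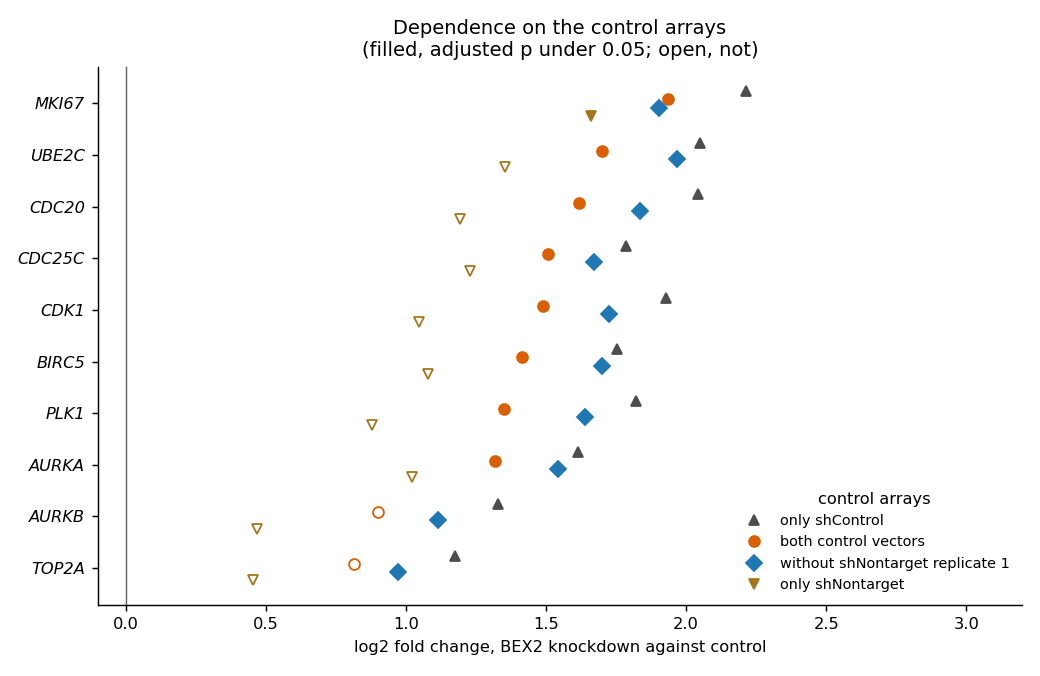
Log2 fold change of each gene, BEX2 knockdown against control, with different control arrays (marker shape; filled, adjusted p under 0.05). Values against shControl alone run from 1.17 to 2.21 and are all filled, and against shNontarget alone MKI67 is the filled marker.

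Most other mitotic kinases rose too. Of 17 kinases, 12 rose, 1 fell and 4 did not pass, and the median log2 fold change was 1.24. PLK4, which sets centriole number, was 1.64 higher (limma adjusted p = 0.0199), and PKMYT1, which places the inhibitory phosphates on CDK1, was 1.61 higher (limma adjusted p = 0.00343). NEK9, a kinase upstream of NEK6 and NEK7, fell by 0.52 (limma adjusted p = 0.0266). NEK7 itself was 1.08 higher (limma adjusted p = 0.0187), and NEK6 was at -0.41 without passing (limma adjusted p = 0.0624). Of 12 partners and activators of the member kinases, 10 rose, 1 fell and 1 did not pass, with a median of 1.31. CCNA2 (cyclin A2) was 1.96 higher (limma adjusted p = 0.00191), and INCENP, the scaffold on which AURKB and BIRC5 meet, was 1.69 higher (limma adjusted p = 0.00456). AJUBA, a LIM protein that can activate AURKA, fell by 0.71 (limma adjusted p = 0.0228).

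For the APC/C, which CDC20 and UBE2C serve, the calls with all arrays lay among regulators and a substrate. Of 17 genes tested 4 rose, none fell, and the median was 0.19. The 12 core subunits held 0 calls, with log2 fold changes from -0.33 to 0.39 and a lowest adjusted p of 0.0896 in limma's test. Without shNontarget replicate 1 the list held 7 rises, and 3 of them were core subunits, CDC27 (0.50, limma adjusted p = 0.0106), CDC26 (0.38, 0.0321) and ANAPC11 (0.43, 0.0477). The genes that rose were PTTG1 (securin, an APC/C substrate, 1.68), UBE2S (which extends the chains that UBE2C begins, 1.54), MAD2L1 (a checkpoint inhibitor of CDC20, 1.31) and FBXO5 (the APC/C inhibitor EMI1, 0.72). FZR1, the G1 counterpart of CDC20, was at -0.18 (limma adjusted p = 0.442).

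The PAM50 proliferation index of breast cancer profiling contains MKI67, BIRC5, CDC20 and UBE2C. Its other 7 genes all rose, with a median of 1.60 and a range of 1.22 to 1.93. TYMS, which makes thymidylate, was 1.93 higher (limma adjusted p = 0.00204), and CEP55, which acts in abscission, was 1.74 higher (limma adjusted p = 0.00309).

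Family relatives of the members moved in both directions. Of 16 relatives 15 passed the filter on dim probes and AURKC did not, and 5 rose, 1 fell and 9 did not pass, with a median of 0.39. CDC25A, the G1/S phosphatase of the CDC25 family, was 1.66 higher (limma adjusted p = 0.00483), and CDK2, the kinase of S phase, was 1.52 higher (limma adjusted p = 0.000699). PLK4, UBE2S and the apoptosis inhibitor BIRC3 (0.95, limma adjusted p = 0.00677) were the others that rose. TOP2B, the topoisomerase II of non-dividing cells as well as dividing ones, fell by 0.54 (limma adjusted p = 0.0141). The G1 kinases CDK4 and CDK6 were at -0.15 and 0.39, PLK2 and PLK3 at -0.17 and -0.38, TOP1 at -0.014 and XIAP at -0.30, none of them past the threshold. Several genes stand in more than 1 list, PTTG1, CCNB1, PLK4, CDC25A, CDC25B, UBE2S and FZR1 among them.

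**Figure D4:**
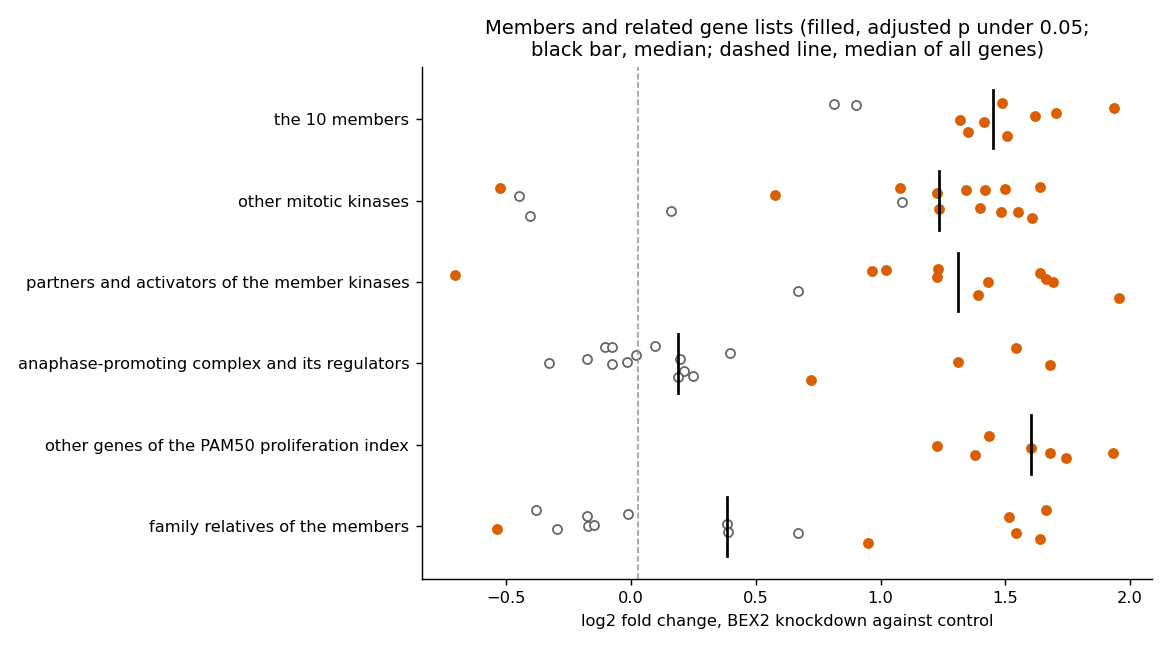
Log2 fold change, BEX2 knockdown against control, of the 10 members and of the genes of each list (points, genes; filled, adjusted p under 0.05; black bars, list medians; dashed line, the median of all genes at 0.027). The list medians lie at 1.24, 1.31, 0.19, 1.60 and 0.39 in the order drawn from the second row down, and the core APC/C genes sit around 0.

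The members varied together over the arrays. Pearson's r between pairs of members lay between 0.834 (MKI67 and AURKB) and 0.995 over the 8 arrays, as a description of arrays that share the same groups and scaling. The 5 other genes whose values were most like the mean of the standardised members were CKAP2 (r = 0.999), MLF1IP, now named CENPU (0.998), DLGAP5 (0.998), BUB1 (0.997) and WDR34, now named DYNC2I2 (0.997). CKAP2 and DLGAP5 encode spindle proteins, MLF1IP and BUB1 kinetochore proteins, and WDR34 a dynein intermediate chain. Their log2 fold changes were 1.15, 1.43, 1.39, 1.42 and 0.76 in that order, all past the threshold.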

How the data were processed

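RNA of 8 HuCCT1 cell samples (2 for each of 4 vectors, grouped by the labels) was labelled with Cy3 and hybridised to Agilent single-colour arrays of design 028004. The authors deposited the processed intensity of each spot, background-subtracted and detrended by Agilent Feature Extraction 10.7.3.1, the version in the submitters' processing notes, and not scaled between arrays. Low values are surrogates in 19.9% to 25.9% of spots. A deposited intensity table of the series differed by at most 0.497% and was an alternative.

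Control spots and outlier spots were left out. Intensity was taken to log2 minus the array's 75th percentile, with repeat spots averaged. Probes had to be well above background on 4 or more arrays, and each gene was represented by its brightest probe over the 8 arrays. Groups were compared by limma 3.58.1 (lmFit, eBayes with trend, R 4.3.3, statmod 1.5.0) with Benjamini-Hochberg adjustment over 20450 genes and a threshold of 0.05, for 4 against 4 arrays and in a model of the 4 vectors. Files were read with pandas 2.3.3 and numpy 2.4.6 in Python 3.11.15, and figures were drawn in matplotlib 3.10.9. The scripts were tested on simulated data.

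The methods' rank product is given as a rank only. Members and lists were chosen with earlier results of these data known. Besides members and BEX2, the 2 largest called rises and falls of each list and the 5 genes most like the members are named; others were named after their values were seen, and 1 marker gene is not reported here. Alternatives were quantile normalization, normexp with an offset of 50, the series table, the dim-probe filter, the mean of probes, the replicate block, a random block for the vector, a single control vector, leaving out single arrays, limma without trend, the methods' t-test and fits of the compared vectors only. Names of deposited files give each replicate number a day of its own, without saying what was done on it. The numbers were therefore taken as pairs in the replicate block alone, and the main fits did not pair arrays. Replicate differences of vectors correlated with r between -0.063 and 0.26 over genes.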

Additional observations from a re-analysis of the deposited data

How the results depend on the processing

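The direction of all 10 members held in BEX2 knockdown against control under all 22 alternatives, and the call of MKI67 in all of them. With shNontarget alone as control, 340 genes and 1 member were called, and CDK1 (1.05), PLK1 (0.88), AURKA (1.02), BIRC5 (1.08), CDC20 (1.19), CDC25C (1.23) and UBE2C (1.35) no longer passed, with adjusted p between 0.0552 and 0.163. With shControl alone 6842 genes were called, and AURKB (1.33) and TOP2A (1.17) passed. AURKB also passed at 0.82 with normexp, and at 0.90 with the vector as a random block, in the 4-vector model and by the methods' t-test unadjusted. TOP2A passed at 0.81 under the same last 3 settings. In the random block the correlation within vectors was estimated at -0.137, so arrays of a vector were not treated as more alike than others. The methods' t-test called 5418 genes unadjusted, and after adjustment PLK1 (1.35) no longer passed (adjusted p = 0.0628). The cause of these moves was not tested.

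Leaving out each array in turn gave 1246 to 4727 genes called, against 2649 with all arrays, and 7 to 10 members. Over those fits PLK1 ran from 1.17 to 1.64, AURKB from 0.76 to 1.11 and TOP2A from 0.69 to 0.97. The count of members called ran from 0 to 10 in shBEX2-1, from 0 to 10 in shBEX2-2, from 0 to 7 between sublines (7 without either shNontarget array) and from 0 to 9 between control vectors. Fits of only the vectors compared called 0 members in shBEX2-1, where 185 genes were called, and 7 between sublines, where 2703 were. UBE2C between sublines ran from -0.100 (without shBEX2-1 replicate 2) to 0.112 (without shBEX2-1 replicate 1), with -0.0932 without shBEX2-2 replicate 1, never past the threshold.

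With the replicate block, 8 members stayed called, of 2456 genes called. In shBEX2-1 it called 5 members, and 513 of 20450 genes were called higher against 693 without the block. In shBEX2-2 it called 10 members, and 838 genes were called higher against 994. The block changed no call of a member other than PLK1 and AURKA in shBEX2-1. A left-out array leaves 1 array of its vector, which is then taken to vary like the others. With 2 arrays a vector, differences between sublines or between control vectors of the size seen here have wide intervals.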

Other observations

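BEX2 intensity was lower on every BEX2-knockdown array than on every control array, and all 10 members were higher there on average. Between the sublines that opposite order was not seen, and among the control arrays the order was mixed. BEX2 intensity was lowest in shBEX2-1 cells (11.9 and 11.1, not well above background) and higher in shBEX2-2 cells (20.4 and 26.0), whereas all 10 members were higher on average in shBEX2-2 than in shBEX2-1. Among the control arrays, shNontarget replicate 1 had the highest BEX2 intensity (115, against 71.0, 55.7 and 48.8) and also the highest level of 9 of the 10 members. The lowest control intensity, 48.8, was on shNontarget replicate 2, where every member was higher than on both shControl arrays. Scaled like the members, BEX2 was at -3.77 on that array, between -3.36 and -3.91 on shControl replicates 1 and 2. These are values of 8 arrays with no test.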
